A study of Mus musculus with 4 samples.

Results

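Mouse genes with roles in growth arrest and stress responses, 7 in number, were examined for nearby binding of the glucocorticoid receptor (GR), which is the nuclear receptor that corticosterone activates. The genes were Sgk1, Ddit4, Cdkn1a, Cdkn1b, Cdkn1c, Tiparp and Bcl6. They were given by name, out of 21631 protein-coding genes on chromosomes 1 to 19 and X, and a peak counted for a gene when its centre lay in the gene span or within 100 kb of it. All 7 matched the RefSeq gene table of GRCm38.p6, the assembly of mm10, and 18 sites were found near 4 of them.

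Binding was measured by chromatin immunoprecipitation and sequencing in 33AP1C9 cells, an engineered line derived from the mouse mammary epithelial line C127. Every group shared the same background, namely integrated copies of a mouse mammary tumour virus reporter with PP7 sequences and expression of GFP-tagged PP7 coat protein, and all cells were kept in charcoal-stripped serum before treatment. The 3 groups, with 1 library each, were untreated cells, cells given 600 nM corticosterone for 1 h and cells given 600 nM corticosterone for 12 h. The libraries held 79203826, 90556119 and 97749688 tags, where a tag is 1 mapped read. The labels give the second antibody a different catalogue number in each library, so antibody and time cannot be told apart if those numbers are correct. Peak lists hold no RNA levels, so neither the cell identity nor the expression of the genes was checked.

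GR enters the nucleus when hormone binds it and attaches to DNA, often at a palindrome of paired hexamers, from which it can raise or lower transcription of genes nearby or far away. In epithelial cells glucocorticoids are known for slowing proliferation and for inducing genes that restrain growth signals. Sgk1 encodes a serum- and glucocorticoid-regulated kinase that acts on ion channels and cell survival. Ddit4 encodes REDD1, which restrains the mTOR growth pathway under stress. Cdkn1a, Cdkn1b and Cdkn1c encode the cyclin-dependent kinase inhibitors p21, p27 and p57. Tiparp encodes an ADP-ribosyltransferase that dampens aryl hydrocarbon receptor signalling, and Bcl6 a transcriptional repressor.

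Among the promoter windows of these genes in the RefSeq table, 1 overlapped a peak. The 1 h peak inside Sgk1 (mm10 chr10:21993534-21993816) was centred 215 bp upstream of the RefSeq start at 21993890, on the plus strand, and ended short of it. The 177 bases below are the stretch, from the RefSeq promoter table of GRCm38.p6, in which that start's promoter window (250 bases before to 50 after the start) lay under the 1 h peak, chr10:21993640-21993816. Capitals mark a full palindrome of the GR element.

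Sgk1 promoter under the peak: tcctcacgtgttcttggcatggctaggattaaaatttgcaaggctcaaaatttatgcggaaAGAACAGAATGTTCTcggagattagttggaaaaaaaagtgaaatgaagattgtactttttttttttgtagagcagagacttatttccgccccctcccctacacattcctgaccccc

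The capitals, at 21993701 to 21993715, match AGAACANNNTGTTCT, which reads the same on both strands, and end 175 bases before the start. Their middle lay 33 bp from the centre of the 1 h peak and 42 bp from that of the 12 h peak. A further single hexamer, TGTTCT, stood at 21993648 to 21993653. The full palindrome was found in 3 of 32619 promoter windows of the table (0.0092%), and of these 3 the Sgk1 window was the only one under a 1 h peak. The looser form GNACANNNTGTNC, which contains the full palindrome, was found in 0.478% of all windows and in 16 of the 100 under a 1 h peak, and a single hexamer, AGAACA or TGTTCT (either strand, arms of the palindromes included), in 19% of all windows and 29% of those under a 1 h peak. The table holds 13 windows for 6 of the genes, and that of Sgk1 just described was the only one overlapping a peak at either time, against 0.307% of all windows at 1 h and 0.159% at 12 h. Of the other 12 windows none held either palindrome and 3 held a hexamer, in Sgk1 (2 windows) and Bcl6 (1 window). A match describes the letters of a window only.

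Peaks were concentrated at 3 of the 7 genes. At 1 h, 4 genes had a peak within 100 kb, which were Sgk1 with 6, Ddit4 with 8, Cdkn1a with 2 and Tiparp with 1. At 12 h, 3 genes did, which were Sgk1 with 5, Ddit4 with 6 and Cdkn1a with 3. These are 57.1% and 42.9% of the 7 genes, and of all protein-coding genes 37.9% had a 1 h peak and 22.6% a 12 h peak in the same window. Within 25 kb, 3 of the 7 had a peak at each time (42.9%), against 17.1% of all genes at 1 h and 9.33% at 12 h. With 7 genes, each one is a large part of these shares, and the difference was not tested. Within the list, Ddit4 and Sgk1 were at the far end of the count: 0.661% of all genes had 6 or more 1 h peaks and 0.254% had 5 or more 12 h peaks. At least as many 1 h peaks as at Ddit4 were found at 0.125% of genes, Ddit4 included. Sgk1 spans 118 kb and therefore had a window of 318 kb, while that of Ddit4, a gene of 2.1 kb, was 202 kb. Neighbouring genes count the same sites, since at least 1 of the 1 h sites of Ddit4 also lay in the window of 4 other protein-coding genes and at least 1 of those of Cdkn1a in the window of 6. Of these neighbours, 2 held all 8 Ddit4 sites and 3 held both 1 h sites of Cdkn1a, so those counts belong to the neighbourhood as much as to the gene.

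**Figure D1:**
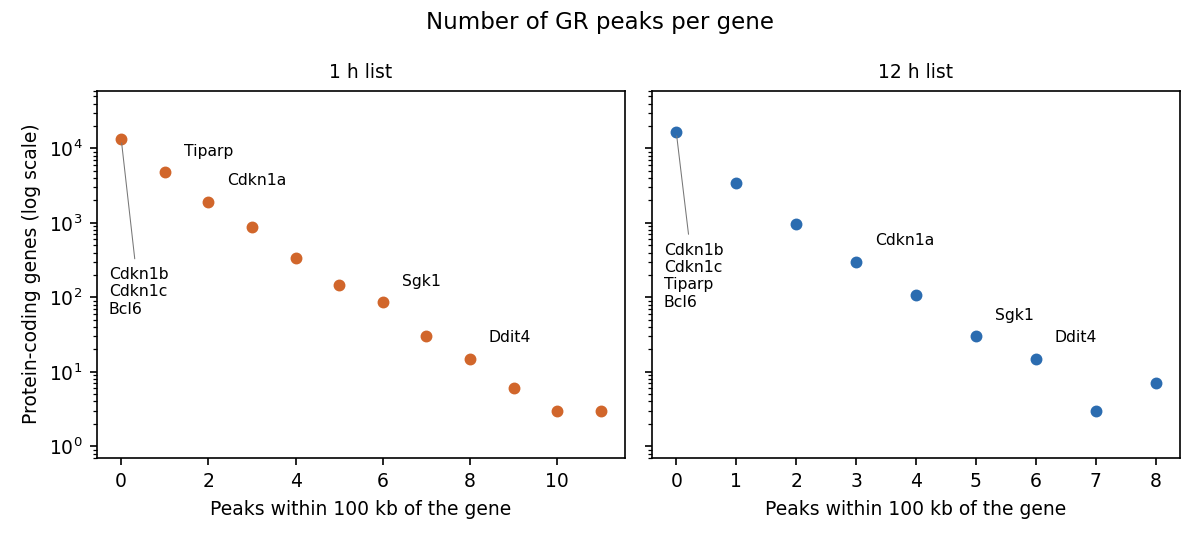
Number of protein-coding genes (vertical, log scale) by the number of GR peaks within 100 kb (horizontal), for the 1 h list (left) and the 12 h list (right). Each point is a peak count; Ddit4 stands at 8 and 6 peaks and Sgk1 at 6 and 5, while Cdkn1b, Cdkn1c and Bcl6 stand at 0 in both lists and Tiparp at 1 and 0.

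The deposited signal is given below as tags per 10000000 tags of the library, called tags, and the untreated library by its raw tags in the same window. At the 17 sites of the 1 h list the signal ranged from 10.5 to 243 tags with a median of 46.9, against a median of 18.3 over all 5638 1 h sites. At the 14 sites of the 12 h list it ranged from 12.2 to 188 with a median of 27.4, against 18.0 over all 2883 sites. The untreated library held 5 to 27 raw tags at these sites, or 0.631 to 3.41 tags on the scale of the treated libraries. Its median at the 1 h sites was 11 raw tags, as it was over the whole 1 h list. The untreated library was the control in calling the 1 h and the 12 h list, and a fold of 6 or more over it was required, so each listed site stood above it by construction. The untreated list held 1 peak in all, and it was not near any of the 7 genes. With a list of that size, nothing is read from the absence.

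**Figure D2:**
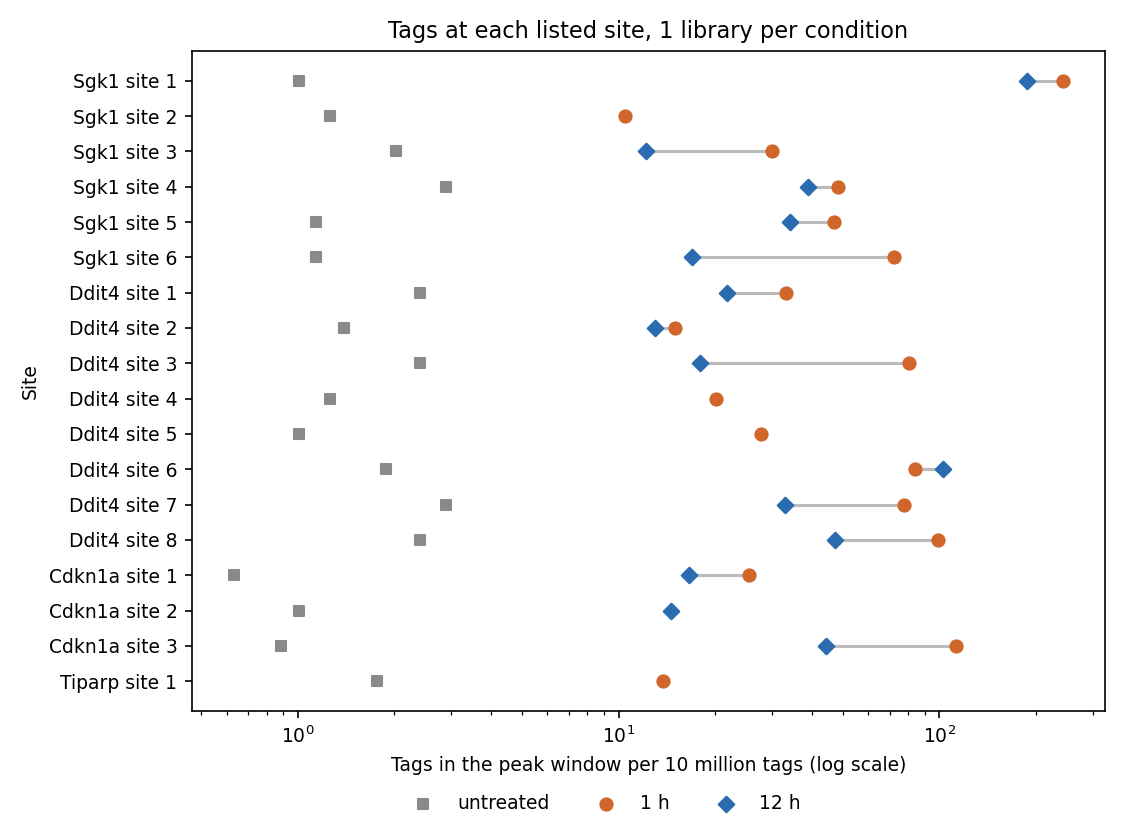
Tags in the peak window (horizontal, log scale, per 10000000 tags) at the 18 sites, in the untreated (squares), 1 h (circles) and 12 h (diamonds) libraries; a missing marker means that the site was not listed at that time. All untreated values are under 4 tags, and 12 of the 13 sites with both treated markers have the 12 h marker to the left.

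Around Sgk1 the strongest site was also the farthest from the gene. It lay 96.3 kb upstream of the first transcript start, in a stretch without an annotated gene and with Sgk1 as its nearest protein-coding gene (chr10:21785775-21786057). It held 243 tags at 1 h and 188 at 12 h, against 8 raw untreated tags in the 1 h window. This ranked it 32nd of the 1 h list and 18th of the 12 h list by score. It carried 53.9% of the summed tags of the Sgk1 sites at 1 h and 64.7% at 12 h. The next peak beyond the 100 kb limit lay 140 kb from the gene at 1 h, with 11.6 tags. Distances of the sites upstream of the gene are from the first Sgk1 start, at 21882184. The other starts lie at 21978672 to 21994666, so these sites fall in the window only through the first start. The upstream site nearest the gene was 160 kb from the site inside Sgk1.

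The other upstream Sgk1 sites were weaker. At 48.3 kb (chr10:21833753-21834035) there were 48.4 tags at 1 h and 38.9 at 12 h, with 23 raw untreated tags. At 80.3 kb the values were 30 and 12.2, and the 12 h fold over the untreated library, 6.43, stood just above the minimum. With a log2 ratio of -1.30 (-1.63 to -0.99), 12 h over 1 h, this was 1 of the 2 sites of the locus that were lower by 2-fold or more. At 85.6 kb a site of 10.5 tags was listed at 1 h only, and its fold over the surrounding 10 kb of 6.59 was close to the minimum of 6 there too. None of these sites lay in an annotated gene.

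The promoter site and a site just past the 3′ end of Sgk1 changed places in strength. The promoter site, which holds the palindrome shown above, had 46.9 tags at 1 h and 34.2 at 12 h, with 9 raw untreated tags. The downstream site (chr10:22004879-22005161), 5.12 kb past the gene end and 11.3 kb from the promoter site, had 72.3 and 17.0, also with 9 raw untreated tags in the 1 h window. The downstream site was thus the stronger of these at 1 h and the weaker at 12 h. On the log2 scale the 12 h to 1 h ratio was -0.46 at the promoter (95% exact binomial counting interval -0.67 to -0.25) and -2.09 downstream (-2.35 to -1.84), and these intervals do not overlap. The intervals reflect tag counting alone. Reads here carry no molecular identifiers and may include copies of 1 molecule, and with 1 library each, the ratios compare libraries and have no replicate check.

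**Figure D3:**
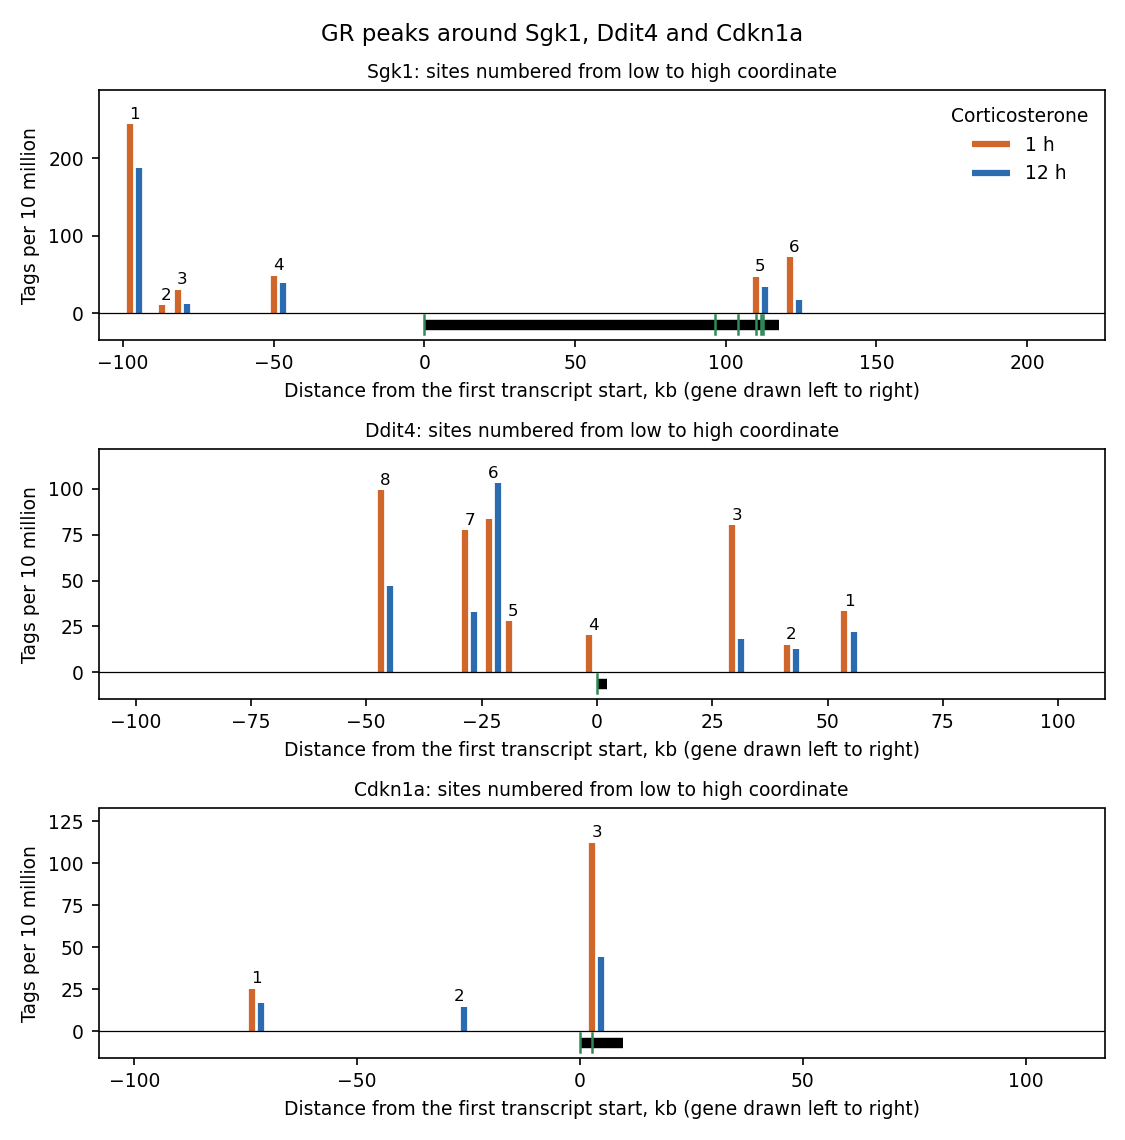
Signal of the GR peaks (vertical, tags per 10000000 tags; 1 h and 12 h drawn side by side) by distance from the first transcript start in kb (horizontal) for Sgk1, Ddit4 and Cdkn1a, with the gene as a black bar and transcript starts in green. Sgk1 site 1, 96.3 kb upstream, is the highest at both times; Ddit4 site 6, 22.5 kb upstream, is the one site higher at 12 h; Cdkn1a site 3 lies inside the gene.

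Ddit4 had sites on both sides, 3 downstream and 5 upstream of its start. The nearest, 727 bp upstream (chr10:59952356-59952638), was among the weaker, with 20.1 tags at 1 h against 10 raw untreated tags, and it was not listed at 12 h. The site 18.1 kb upstream, with 27.8 tags at 1 h, was not listed at 12 h either. Reaching the required fold and tag threshold at 12 h would have taken 7.67 tags at each of them, but a peak also has to stand 6-fold above the surrounding 10 kb. At 1 h the local fold was 9.4 at the promoter-proximal site and 6.2 at the other, and a site can keep tags at 12 h without being listed.

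The 4 strongest Ddit4 sites at 1 h lay 22.5 to 45.9 kb upstream and 30.3 kb downstream of the start, and they did not move together. The one at 22.5 kb (chr10:59974123-59974405) held 83.7 tags at 1 h and 103 at 12 h, with 15 raw untreated tags in either window. The one at 27.6 kb (chr10:59979210-59979492), 5.09 kb further on, held 77.4 and 32.9, with 23 raw untreated tags in the 1 h window. At 1 h these neighbours differed by less than 10 tags, while at 12 h the first held more than 3 times the signal of the second. Their log2 ratios were 0.30 (0.16 to 0.44) and -1.23 (-1.43 to -1.04). The site at 22.5 kb was the only one of the 13 shared sites of the 7 genes with more tags at 12 h, and 89% of all shared sites had a lower ratio.

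The remaining Ddit4 sites were lower at 12 h or level within counting error. The site inside Anapc16, a subunit gene of the anaphase-promoting complex, 45.9 kb upstream, held 99.2 and 47.2 tags, the highest 1 h value of the locus. Downstream, the site at 30.3 kb (chr10:59921288-59921570), in the long non-coding RNA gene Gm40673, held 80.2 and 18.0 tags. Its log2 ratio of -2.15 (-2.40 to -1.92) was the lowest of the 13, and 1.48% of all shared sites had a lower one. Sites at 42.1 kb, in Gm40673, and at 54.7 kb, inside the co-chaperone gene Dnajb12 and the non-coding Gm46226, held 15 and 13, and 33.2 and 21.8 tags. The first of these had an interval spanning 0 (-0.21, -0.57 to 0.15). For 7 of the 8 sites another protein-coding gene, Dnajb12 or Anapc16, was nearer than Ddit4.

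Cdkn1a carried a strong site inside the gene, 941 bp downstream of its second transcript start at 29093769 (chr17:29094569-29094851). It held 112 tags at 1 h and 44.2 at 12 h, against 7 raw untreated tags in each window, which is a fold of 127.2 and 50 over the untreated library. The log2 ratio was -1.35 (-1.51 to -1.18). The site 72.6 kb upstream, nearer to Stk38 and in the non-coding gene Gm16196, held 25.5 and 16.6 tags (-0.62, -0.92 to -0.33). Another site, 27.1 kb upstream, was listed at 12 h only, with 14.6 tags and 8 raw untreated tags. It lay in Trp53cor1 (chr17:29063733-29064035), the lincRNA-p21 gene, a p53-induced non-coding RNA. The tag threshold corresponds to 8.28 tags at 1 h, and its local fold at 12 h was 7.63.

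Tiparp had a single weak site, 29 kb past its end (chr3:65584361-65584643), with 13.8 tags at 1 h and 14 raw untreated tags, and none at 12 h. Its fold over the untreated library was 7.81, and 10.6 tags would have been needed to reach the minimum at 12 h. Cdkn1b, Cdkn1c and Bcl6 had no peak in the window at either time. The nearest 1 h peak to Cdkn1b was 149 kb away, inside Gprc5a, with 12.8 tags, and the nearest 12 h peak 2562 kb away, inside Eps8, with 18.1 tags. For Bcl6 the nearest peaks were 217 kb away at both times, with 18.6 and 17.3 tags. For Cdkn1c they were 309 kb away, near Mrgprg, with 22 and 20.2 tags. Of the 3 cyclin-dependent kinase inhibitors of this family, Cdkn1a alone had a listed GR site within 100 kb. Of all protein-coding genes, 37.9% had a 1 h peak and 22.6% a 12 h peak in such a window.

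Over the 7 genes, 13 of the 17 sites of the 1 h list were also listed at 12 h (76.5%, exact binomial 95% interval 50.1 to 93.2%), against 43.2% of all 1 h sites. The interval treats the sites as independent, although many are neighbours at the same gene and all come from the same libraries. It is therefore no test of the difference from all sites. The signal of the 17 sites was higher than that of the list as a whole, and listing at 12 h went with signal. Of the sites with 25 or more tags at 1 h, 12 of 13 were listed at 12 h, against 75.4% of all such sites. Of those with fewer, 1 of 4 was, against 26.8%. The limit of 25 tags was set with the values in view. Requiring 2 times the minimum folds in both lists left 12 sites at 1 h and 5 at 12 h, with 41.7% shared, beside 40.4% of all sites treated the same way.

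Of the 13 shared sites, 12 held fewer tags at 12 h than at 1 h, against 77.2% of all 2436 shared sites. Of these, 6 were at least 2-fold lower (3 of Ddit4, 2 of Sgk1 and 1 of Cdkn1a), against 24.5% of all. None was at least 2-fold higher, against 1.44%. The sites next to the 2-fold limit were that in Anapc16 at -1.07 and the distal Cdkn1a site at -0.62. The median log2 ratio was -0.62, with a range from -2.15 to 0.30, beside -0.49 over all shared sites. Relative to that genome-wide median, 8 sites stood lower and 5 higher, the latter being the Ddit4 sites at 22.5 kb upstream and 42.1 kb downstream and the Sgk1 sites at the promoter, 48.3 kb and 96.3 kb. Sites that dropped out of the 12 h list have no ratio.

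**Figure D4:**
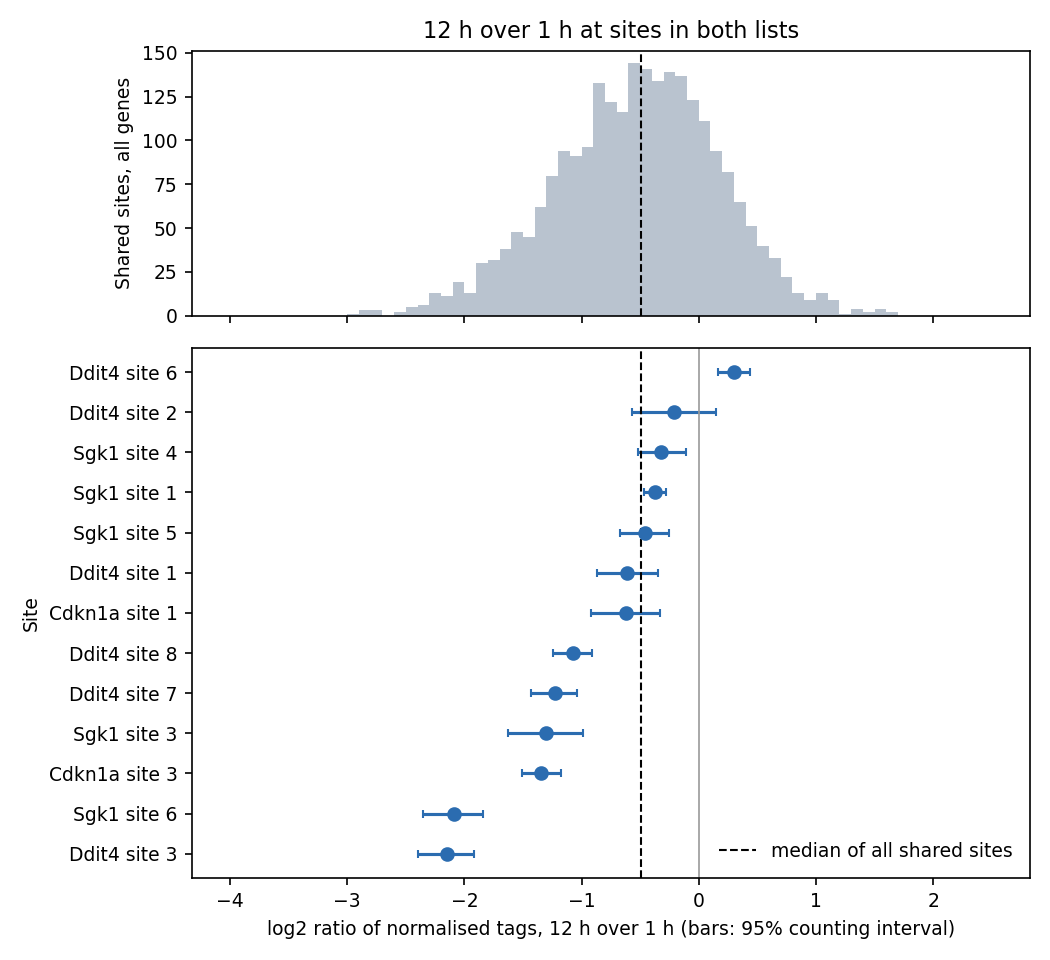
Upper panel: number of shared sites (vertical) by log2 ratio of normalised tags, 12 h over 1 h (horizontal), for all 2436 shared sites. Lower panel: the 13 sites near Sgk1, Ddit4 and Cdkn1a with 95% counting intervals; the dashed line is the median of all shared sites at -0.49, and the values run from -2.15 at Ddit4 site 3 to 0.30 at Ddit4 site 6.

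Of the 17 sites at 1 h, 4 lay within 1 kb of a transcript start in the promoter table. The same held for 215 of the 5476 1 h sites on the chromosomes which that table covers (3.93%), but the 17 were chosen by their distance from genes, so nothing is read from that difference. The 4 were the promoter site of Sgk1, the proximal site of Ddit4, the site inside Cdkn1a and the site near the start of Gm40673. Of the 18 sites, 2 were inside the span of the gene they were counted for and 10 were in no annotated gene. For 9 of the 18 the gene was the nearest protein-coding one. With windows of 25 kb in place of 100 kb, 6 sites at 1 h and 4 at 12 h were left.

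Other genes of the same pathways, 77 in 6 lists, were examined with the same windows. In all, 33 had a 1 h peak (42.9%) and 27 a 12 h peak (35.1%), beside the 37.9% and 22.6% of all genes given above. By list the share ran from 33.3% to 57.1% at 1 h and from 20% to 57.1% at 12 h. The lists are short, and no difference from all genes was tested. Among regulators of the G1 phase of the cell cycle 9 of 20 genes had a 1 h peak and 5 a 12 h peak. The strongest 1 h sites in this list were 74.5 kb from Cdk2 and nearer to Mmp19 (120.4 tags at 1 h, 41.5 at 12 h), inside the cyclin gene Ccnd3 (109.7 and 81.1), 66.6 kb from Ccne2 and nearer to Trp53inp1 (64.9 and 46.5), and 26.7 kb from Ccne1 (41.6 and 15.1). In this list, as for Cdkn1b and Cdkn1c, the inhibitor genes Cdkn2a, Cdkn2b, Cdkn2c, Cdkn2d and Cdkn3 had no peak. Having none was the common case, since 13438 of all 21631 protein-coding genes had no 1 h peak and 16740 no 12 h peak.

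The p53 and DNA damage list had 8 of 14 genes with a peak at each time, 7 of them at both. This is 57.1% at each time, against 37.9% of all genes at 1 h and 22.6% at 12 h. Sesn1, a stress-induced inhibitor of mTOR signalling, held 141 and 87.7 tags at a site inside the gene. Sites near the damage-response genes Gadd45b (56.2 tags, 59.4 kb away and nearer to Gng7) and Gadd45g (48.6 tags, 5.71 kb away) were listed at 1 h only, although each gene had another peak at 12 h. The site 19 kb from Mdm2, whose product degrades p53, held 39.0 and 20.5 tags and was nearer to Cpm. Sesn2 had a peak at 12 h alone, of 7.88 tags, 78.4 kb away and nearer to Ptafr. The tag threshold corresponds to 7.67 tags at 12 h but 8.28 at 1 h, so the same signal could not have been listed at 1 h. Its folds were 7.8 over the untreated library and 7.78 over the surrounding 10 kb, where the minimum is 6.

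In the list for mTOR and the integrated stress response 5 of 15 genes had a 1 h peak and 3 a 12 h peak. These are 33.3% and 20%, against 37.9% and 22.6% of all genes. Deptor, an inhibitory partner of mTOR, held 134.2 and 127.2 tags at a site inside the gene. The site 46 kb from Rptor, which encodes a partner of mTOR, was nearer to Baiap2 and held 32.7 and 33.8 tags. The site inside Rheb, a small GTPase that activates mTOR, held 17.1 tags and was listed at 1 h only. Atf4, Ddit3 and Trib3, genes of the integrated stress response, had no peak.

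Genes tied to Sgk1 had a peak in 4 of 10 cases at both times. This is 40% at each time, against 37.9% of all genes at 1 h and 22.6% at 12 h. Nedd4l, a ubiquitin ligase that Sgk1 inhibits, held 94.0 and 26.3 tags at a site inside the gene. The other sites were inside Foxo3, a transcription factor gene (57.6 and 52.5), 64.6 kb from Ndrg1 (45.7 and 26.8) and inside Scnn1a, which encodes a sodium channel subunit (8.61 and 13.5). The log2 ratios at these sites were -1.84 for Nedd4l, -0.14 for Foxo3, -0.77 for Ndrg1 and 0.65 (0.23 to 1.07) for Scnn1a. At 1 h the Scnn1a site stood just above the tag threshold, which corresponds to 8.28 tags. Neither Sgk2 nor Sgk3 had a peak.

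In the aryl hydrocarbon receptor list 3 of 8 genes had a peak at both times. This is 37.5% at each time, against 37.9% of all genes at 1 h and 22.6% at 12 h. Cyp1a1 (55.2 and 27.4 tags, 19.6 kb away) and Cyp1b1 (45.9 and 39.8, 66.8 kb away) encode cytochrome P450 enzymes induced by that receptor, and Ahrr (25.5 and 13.9, 97.5 kb away) its repressor. In each case another protein-coding gene was nearer. The list of Bcl6 partners and related genes had 4 of 10 at both times, or 40%, against 37.9% and 22.6% of all genes. Its strongest site was 36.7 kb from Prdm1, a repressor gene that Bcl6 restrains (126 and 90.9 tags). Bcl6b had a site of 47.7 and 34.9 tags nearer to Slc16a11, and Hdac3 one of 10.8 and 8.29 nearer to Arap3. Some genes of these lists share windows with other genes, so the sites are not independent.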

How the data were processed

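Peak lists of 3 libraries were used; the input library was not used here. Per the submitters' processing notes, the tools were Bowtie2 2.2.6, bcl2fastq 2.17 and HOMER (version not given in the sources used here), with the mm10 build. Per the file headers, findPeaks of HOMER was run on each library in factor style, with a false discovery rate of 0.001, 75 tags as the threshold, and minimum folds of 6 against the control and against the local 10 kb. The control was the untreated library for both treated lists. At most 4 tags per position were considered in the treated and 3 in the untreated library, which limits duplicate reads.

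The deposited signal is the tag count scaled by the authors to 10000000 tags. The deposited tag count of a treated peak was scaled to the untreated library; undoing that scaling with the library sizes gave whole raw tags at 100% of the peaks (tolerance 0.1). The deposited score served to rank peaks within a list, and the deposited fold over control and over the local region came from the caller. The untreated tags are raw deposited counts, given as 0.5 where the caller found none.

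Windows were 282 bp at 1 h and 302 bp at 12 h. Peaks were paired by an overlap of 1 bp or more. Log2 ratios of normalised tags have exact binomial (Clopper-Pearson) 95% intervals from raw tags (Python 3.11.15, scipy 1.17.1, pandas 2.3.3); the pairing and the intervals were tested on simulated data. No test across conditions was made with 1 library per condition. Genes came from the RefSeq table of GRCm38.p6 and promoter windows from the matching RefSeq sequence table, which has no entry for Cdkn1c. The genes and pathway lists were chosen with earlier results of these data known. Every site of the 7 genes is given. In each pathway list the genes named with tags are up to 4 with the highest scoring 1 h peak, and those with a peak at 12 h alone, except 2 results that are not reported here, so the genes named do not show the full range of their lists; genes without a peak were named after their values were seen. Alternatives covered the gene window, the caller's minimums, the nearest gene, the pairing and the scaling of tags.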

Additional observations from a re-analysis of the deposited data

How the results depend on the processing

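Within 25 kb the 7 genes had 6 sites at 1 h and 4 at 12 h, and 14 pathway genes had a 12 h peak (18.2%, against 9.33% of all genes in that window). With the nearest gene alone they had 9 and 6 sites, and the pathway genes with a peak numbered 21 at 1 h and 15 at 12 h. At 2 times the minimum folds, 5 sites at 12 h and 41.7% of 1 h sites shared were left, with 14 pathway genes at 12 h. Fewer peaks pass by construction. For these settings the share of all genes with a peak is not given, so the gene counts stand without a comparison. The median log2 ratio of the 7 genes, -0.62 as reported, was -0.90 within 25 kb and -1.07 within 50 kb. At 2 times the minimum folds it was -0.46, and the median of all shared sites at that setting is not given. Centring on the median of all shared sites, an alternative chosen after seeing the data, moved the median log2 ratio of the 7 genes to -0.13. It turned the ratio positive at the Sgk1 sites 96.3 kb upstream (0.12), 48.3 kb upstream (0.18) and at the promoter (0.04), and at the Ddit4 site 42.1 kb downstream (0.29), since it takes a median of -0.49 from every ratio. Taking tags per base, subtracting untreated tags or pairing by centres within 100 bp turned the sign of none of the 13 ratios; per base, the farthest Sgk1 site moved to -0.47. The counts of genes with a peak among the 7 stayed between 3 and 4 at 1 h and between 2 and 3 at 12 h. No paired analysis was possible because each condition has 1 library. With 1 library per condition, the spread between replicates is unknown.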
